A study of Mus musculus with 21 samples.

Results

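Hbb-b1 and Hbb-b2, the adult-type beta-globin genes of the mouse, were examined as contact targets of 4 viewpoints in 4C-seq, a method that amplifies and sequences the DNA fragments ligated to a chosen fragment (the viewpoint) after cross-linking. The region was taken as the positions from 110955000 to 110983000 on chromosome 7 (mm9), which holds Hbb-b2 near 110961000 and Hbb-b1 near 110976000. Its bounds used no measured value, but earlier results of these data were known when the members were chosen. The region gave 29 positions in steps of 1 kb in each of 7 libraries, 203 of 3007 positions in all. Of the 203, 169 lay more than 10 kb from their viewpoint and were used. The series held 21 libraries, of which these 7 covered the beta-globin locus.

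All 7 libraries came from C57BL/6 fetuses at 14.5 days post coitum, with tissue of 10 to 12 fetuses pooled and fixed in 2% formaldehyde for 10 minutes. Profiles of the Hbb-b1 promoter, of the enhancer site HS-2 and of 3' HS-1 were made both in fetal liver and in fetal brain after cutting with DpnII and then Csp6I. HS-62 was profiled in fetal liver alone, with NlaIII and then DpnII. With 1 library per viewpoint and tissue nothing was replicated, and differences are given without tests or p-values. Fetal liver is a mixture of erythroid and other cells, and fetal brain a mixture of neural and other cells. Contact frequency per cell and the share of cells with a contact cannot be told apart in such mixtures. The assay reads no RNA, so the tissues could not be checked against their marker genes.

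The beta-globin genes are switched on in turn during development. Hbb-y and Hbb-bh1 are the embryonic genes, transcribed in primitive red cells of the yolk sac, and Hbb-b1 and Hbb-b2 take over in the definitive red cells made by the fetal liver. Their high transcription in red cells depends on the locus control region, a cluster of hypersensitive sites beyond the embryonic genes of which HS-2 is a classical enhancer. The sites 3' HS-1 and HS-62 flank the locus and are known as CTCF-bound sites. The comparisons ask how strongly each gene was seen from the enhancer, from the flanks and from the neighbouring promoter, and whether this differed between a tissue that makes globin and a tissue that does not.

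In RefSeq's GRCm38.p6 tables the cluster on chromosome 7 runs in the order Hbb-bt, Hbb-bs, Hbb-bh3, Hbb-bh2, Hbb-bh1 and Hbb-y. Hbb-bt and Hbb-bs are the adult genes of the haplotype that C57BL/6 carries, and by this order they stand at the places labelled Hbb-b2 and Hbb-b1. Their promoters are printed because the sites cut in the assay differ between them. The 4C signal, smoothed over windows of 2 kb or 5 kb, cannot assign a contact to a stretch as short as a promoter. Each line gives the 250 bases before the start of transcription, 5′ to 3′ on the minus strand, from GRCm38.p6 at chr7:103813924-103814173 for Hbb-bt and chr7:103827929-103828178 for Hbb-bs. These coordinates belong to another build than the 4C positions. Capitals mark the CACCC motif bound by Klf1-type factors, the CCAAT box, the TATA box in the form ATATAA, and the sites of DpnII (GATC), of the second enzyme Csp6I (GTAC) and of NlaIII, the first enzyme for HS-62 (CATG).
Hbb-bt: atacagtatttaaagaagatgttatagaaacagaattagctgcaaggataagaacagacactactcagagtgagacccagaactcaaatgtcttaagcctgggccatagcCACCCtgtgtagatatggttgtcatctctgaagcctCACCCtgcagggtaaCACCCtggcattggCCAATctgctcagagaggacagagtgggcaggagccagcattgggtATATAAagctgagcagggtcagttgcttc
Hbb-bs: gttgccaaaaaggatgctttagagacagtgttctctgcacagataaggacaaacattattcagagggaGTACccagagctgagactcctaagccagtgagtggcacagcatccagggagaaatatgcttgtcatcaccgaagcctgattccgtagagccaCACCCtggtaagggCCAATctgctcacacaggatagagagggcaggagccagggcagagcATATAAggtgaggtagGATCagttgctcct

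Both promoters hold the 3 boxes known from adult beta-globin promoters in the same order. Counted from the start of transcription, the first base of the CACCC motif is at -89 in Hbb-bt and -90 in Hbb-bs, that of the CCAAT box at -75 and -76, and that of the TATA box at -29 and -30. Hbb-bt holds the CACCC motif at 2 further places, -140 and -104. Over 32536 promoters of this length, on either strand, 52.1% held the CACCC motif, 33.8% a CCAAT box and 9.09% this form of the TATA box. The 2 promoters were identical at 69.3% of aligned columns over 250 bases, and each matched the promoter of the embryonic Hbb-y at 50.7%. The Hbb-bs promoter holds a DpnII site at -14 and a Csp6I site at -182, whereas the Hbb-bt stretch holds neither. An NlaIII site is in neither stretch. Over all promoters, 41.7% held a DpnII site, 31.5% a Csp6I site and 53.9% an NlaIII site.

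The deposited values are a signal relative to the level at the viewpoint, smoothed over running windows, with a middle, a higher and a lower value per window. Values below are relative signals, which set the middle value of the 5 kb window against the mean of that library outside 10 kb of its viewpoint. A gene's value is the mean over the 5 positions within 2 kb of it. Differences between tissues are of log2(relative signal + 0.1). As the only pair of libraries of 1 condition, the full and 1/16 template libraries of the alpha-globin Hba-a1 promoter in liver served as a yardstick. Their difference for the same quantity had an SD of 0.84 over 326 positions. It is a technical spread at another locus and says nothing about the spread between animals. Sequencing depth is unknown.

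Seen from HS-2, both genes were far higher in liver than in brain. Hbb-b1 had a relative signal of 13.9 in liver against 2.32 in brain, and Hbb-b2 one of 4.81 against 0.909. At Hbb-b1 the 5 positions ran from 12.6 to 16.7 in liver and from 1.86 to 2.51 in brain, so the tissues did not overlap. At Hbb-b2 they ran from 1.15 to 8.29 in liver and from 0.263 to 1.25 in brain, and the lowest liver position lay below the highest brain position.

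The log2 difference between liver and brain from HS-2 was 2.53 at Hbb-b1 and 2.28 at Hbb-b2, or 5.76-fold and 4.87-fold on this scale. Without scaling to the library mean they were 1.87 and 1.65, or 3.66-fold and 3.14-fold. The scaled differences, 2.53 and 2.28, were 3.01 and 2.73 times the template pair's SD. Over all 375 positions of this pair of libraries the median difference was -1.81, so the genes rose against a profile that was mostly lower in liver. Among 92 and 136 stretches at 0.5 to 2 times the distance of the gene, the differences stood at percentile 94.6 for Hbb-b1 and 93.4 for Hbb-b2. Here and below, such distance-matched stretches overlap one another and include the gene itself and other positions of the region. The percentiles are thus not ranks against other parts of the locus alone. Divided by the signal expected at the distance of each gene, the differences were 1.58 and 1.31. With the expectation taken from the genes' side of HS-2 alone, Hbb-b1 kept 1.35, whereas Hbb-b2 fell to 0.23, within the SD. Each expectation was fitted with the genes' own positions included, so a gene's signal raises its own expectation. On the genes' side alone no other positions lie at those distances, so these ratios are not an independent correction for distance.

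The mean lower and higher window values show how wide the fragments under each mean spread. At Hbb-b1 liver gave 4.63 and 31.8, and brain 1.25 and 3.73, so the mean lower value of liver lay above the mean higher value of brain. At 3 of the 5 positions of Hbb-b1 the liver range lay wholly above the brain range. At Hbb-b2 liver gave 0.719 and 15.7, and brain 0.329 and 2.98, and the ranges overlapped at all 5 positions.

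**Figure D1:**
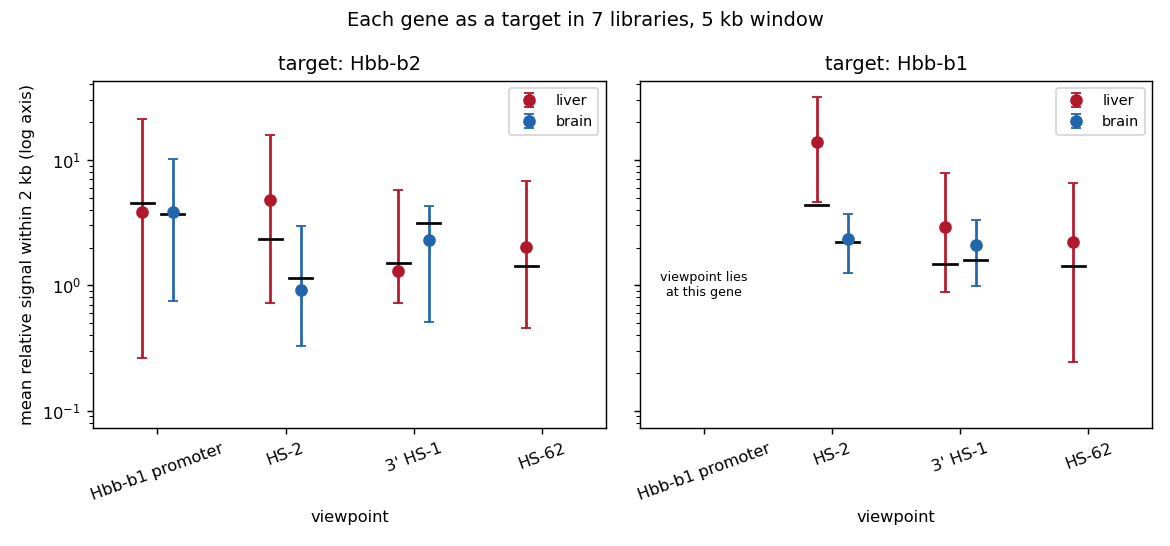
Mean relative signal within 2 kb of Hbb-b2 (left) and Hbb-b1 (right), on a log axis, by viewpoint, in 4 liver libraries (red) and 3 brain libraries (blue). Points are 1 library each, bars run from the mean lower to the mean higher window value, and black lines give the signal expected at that distance; the highest point is Hbb-b1 seen from HS-2 in liver, at 13.9.

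Positions of the whole region showed the same contrast. From HS-2, 18 of 29 positions were past 2-fold higher in liver, against 7.47% of all 375 positions of this pair. Only 1 of 29 was past 2-fold lower, at 110.970 Mb, against 66.9% of all positions. The window ranges of liver lay wholly above those of brain at 4 of 29 positions, against 1.33% of all positions, and at none wholly below, against 10.4%. Of these 4 positions, 3 were at 110.974, 110.975 and 110.977 Mb beside Hbb-b1. The other, at 110.969 Mb, was 0 in brain.

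The liver profile from HS-2 rose in steps. It stood at 1.20 at 110.960 Mb, 5.13 at 110.961 Mb and 8.29 from 110.962 to 110.964 Mb, and reached 15.4 at 110.966 Mb. Beyond the gap at 110.967 and 110.968 Mb it rose again from 1.05 at 110.969 Mb to 10.3 at 110.971 Mb and to its highest value of 16.7 at 110.977 Mb. The signal fell to 4.88 at 110.979 Mb and 3.07 at 110.983 Mb, towards HS-2. The brain profile rose at about the same places to lower levels, from 0.263 at 110.959 Mb, its lowest filled value, to 1.25 from 110.961 to 110.964 Mb, and from 0 at 110.969 Mb to 2.86 at 110.971 Mb. Its highest value was 3.61 at 110.981 Mb, on the side towards HS-2. Neighbouring positions share fragments, and the 27 filled liver positions held 20 distinct values.

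**Figure D2:**
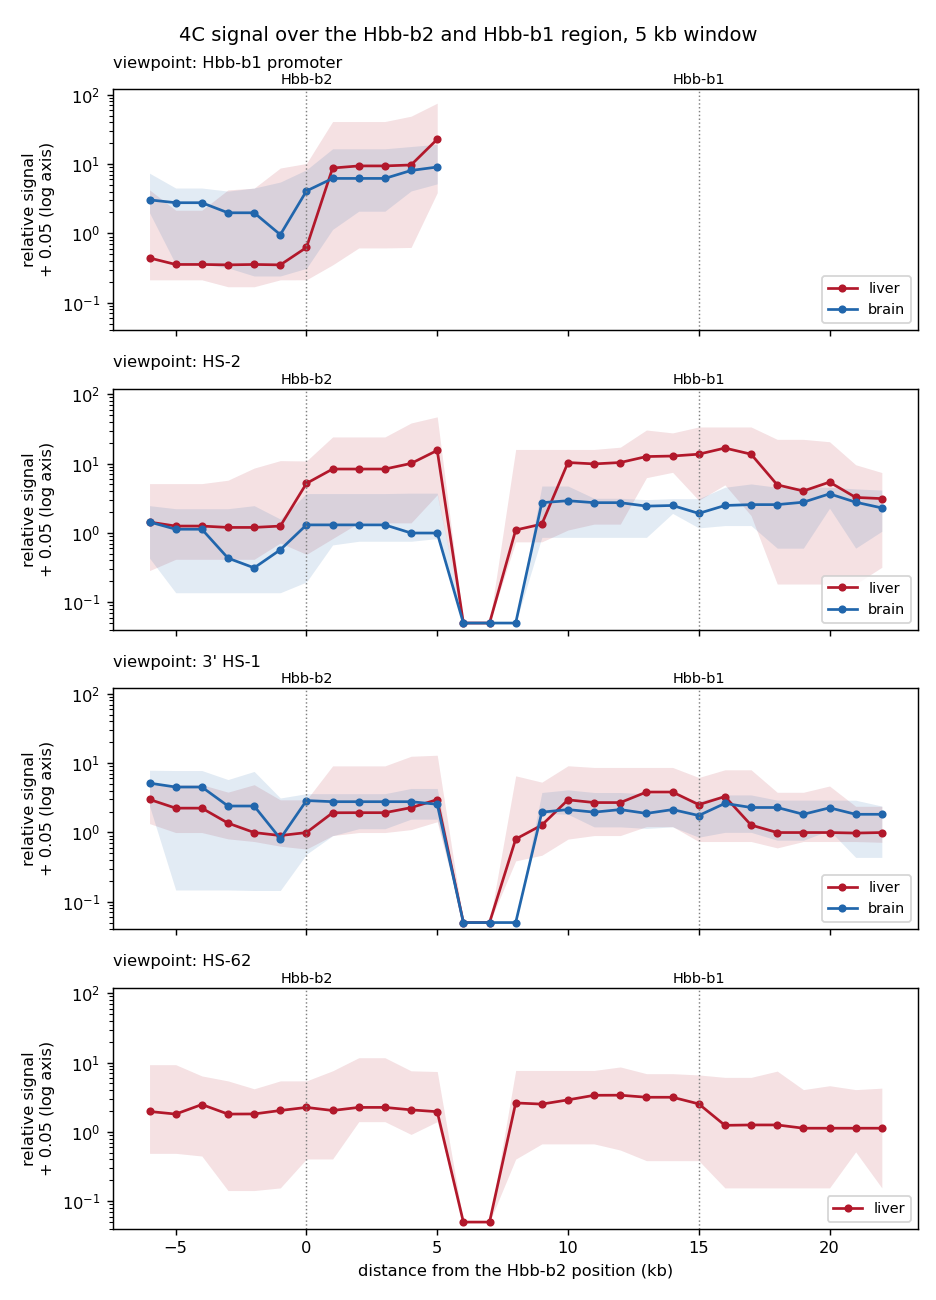
Relative signal plus 0.05 on a log axis against distance from the Hbb-b2 position in kb, in 4 panels by viewpoint, in liver (red) and brain (blue), 5 kb window. Lines with points are middle values and bands run from the lower to the higher window value of 1 library each; positions within 10 kb of the Hbb-b1 viewpoint are left out, and the dip 6 and 7 kb beyond Hbb-b2 is a gap at 0 in every panel that reaches it.

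Seen from its neighbour, the Hbb-b1 promoter, Hbb-b2 had the same mean level in both tissues. The relative signal was 3.85 in liver and 3.84 in brain, and the log2 difference was 0.0039. The expected signal at this distance of 16 kb was 4.57 in liver and 3.72 in brain, so observed over expected was 0.846 and 1.03. Scaling by the library median turned this to 4.15 higher in liver, as the liver median was 0.00106 on the deposited scale, far below the liver mean of 0.0323. An equal level of Hbb-b2 in both tissues is therefore a statement about the mean scaling.

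Equal means hid unequal profiles. In liver the 5 positions at Hbb-b2 stood at 0.306, 0.301, 0.576, 8.71 and 9.35, from 110.959 to 110.963 Mb. In brain they stood at 1.93, 0.907, 4.04, 6.16 and 6.16. Liver was thus lower at 3 positions and higher at 2, with log2 differences from -2.61 to 0.59, a steeper edge in liver at 110.961 to 110.962 Mb.

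Beyond this edge, from 110.955 to 110.961 Mb, all 7 positions were past 2-fold lower in liver, and they were 7 of the 12 positions used, against 66.7% of all 375 positions. Only 110.966 Mb, 11 kb from the viewpoint, was past 2-fold higher in liver, 1 of 12 against 7.47%, with 22.8 in liver and 9.01 in brain. Both shares lie near the background. With the library median as the scale, 12 of 12 were higher in liver and none lower, against 47.5% and 24.5% of all positions, whose median difference moved from -1.60 to 0.64. Without scaling, 3 were higher and 6 lower, against 9.6% and 58.7% of all positions. At no position did the window ranges of the tissues part, against 1.07% of all positions for liver above and 10.9% for liver below.

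At the same distance on the other side of the Hbb-b1 promoter, between the region and HS-2, the signal was 0.788 in liver and 2.56 in brain. Hbb-b2 exceeded this mirror stretch by 2.15 on the log2 scale in liver and by 0.57 in brain. From HS-2, set against stretches beyond the locus control region, the values were 4.71 for Hbb-b1 and 2.23 for Hbb-b2 in liver, and 0.24 and -0.78 in brain. From 3' HS-1, set against stretches on its other side, the values were 2.17 for Hbb-b1 and -0.054 for Hbb-b2 in liver, and 0.86 and -0.75 in brain. Relative to the mirror stretch, the adult genes were thus higher in liver than in brain from all 3 viewpoints. From the Hbb-b1 promoter the tissues differed in the mirror stretch, as Hbb-b2 itself stood at 3.85 and 3.84. These values have no replicate check.

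From 3' HS-1, the CTCF-bound site on the Hbb-b2 side, the genes differed less between the tissues. Hbb-b1, the farther gene at 33.5 kb, had 2.89 in liver against 2.08 in brain, and Hbb-b2, at 18.5 kb, had 1.30 against 2.28. The 5 positions of Hbb-b1 ran from 1.23 to 3.77 in liver and from 1.70 to 2.57 in brain, which overlap. Those of Hbb-b2 ran from 0.850 to 1.88 in liver and from 0.763 to 2.83 in brain, which overlap too.

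The log2 differences from 3' HS-1 were 0.46 at Hbb-b1 and -0.77 at Hbb-b2, both within the template pair's SD of 0.84. For Hbb-b2 this depended on the setting. It had -1.09 with the library median, -1.01 with the mean beyond 20 kb and -1.49 at the nearest position, each larger than 0.84. Hbb-b1 had 0.14, 0.22 and 0.51 under these settings. Among 100 and 54 distance-matched stretches, these differences stood at percentile 93.0 for Hbb-b1 and 53.7 for Hbb-b2. The percentile of Hbb-b1 was thus close to its 94.6 from HS-2. Divided by the expected decay, the difference at Hbb-b2 changed its sign, to 0.23, but with the decay of the gene's side alone it was -0.47. Of 29 positions, 2 were past 2-fold higher in liver and 4 lower, against 24.2% and 12.2% of all 376 positions. With the library median as the scale these were 1 and 12, against 19.1% and 21.0%, with the mean beyond 20 kb 1 and 12, against 19.1% and 18.6%, and without scaling 1 and 6, against 23.9% and 13.03%. Window ranges parted at 1 position, 110.969 Mb, where brain was 0, with liver above (6.12% of all positions), and at none with liver below (0.0%). By signal level in liver, Hbb-b1 stood at percentile 97.0 of 100 distance-matched stretches and Hbb-b2 at percentile 42.6 of 54. In brain these were 79.0 and 46.3.

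**Figure D3:**
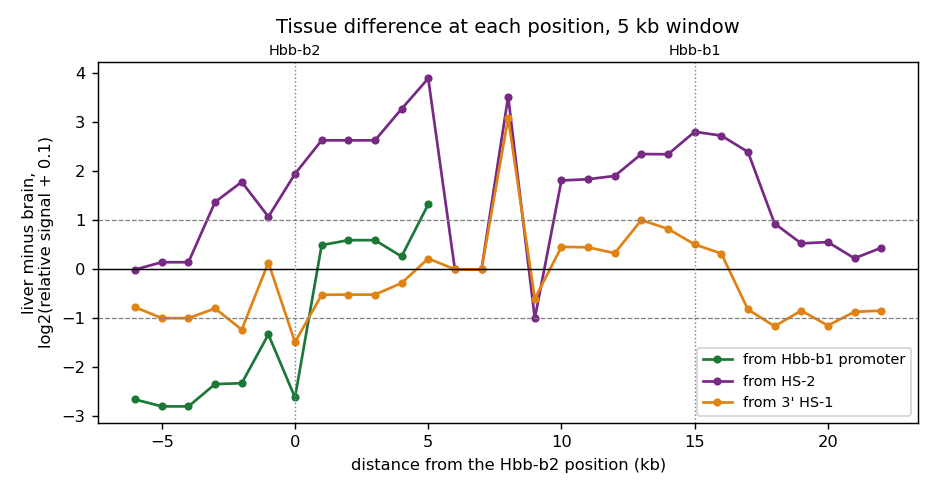
Liver minus brain difference of log2(relative signal + 0.1) at each position (y) against distance from the Hbb-b2 position in kb (x), from the Hbb-b1 promoter (green), HS-2 (purple) and 3' HS-1 (orange), 5 kb window; dashed lines mark 2-fold. The HS-2 line lies above 2-fold over both genes, at 18 of 29 positions, while the spike 8 kb beyond Hbb-b2 is a position at 0 in brain.

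HS-62, on the far side of the locus control region, was read in liver alone and saw both genes at similar levels in the 5 kb window. The signal at Hbb-b2, 97 kb away, was 2.03, with positions from 1.77 to 2.21. The signal at Hbb-b1, 82 kb away, was 2.22, with positions from 1.19 to 3.11. Observed over expected was 1.40 and 1.53, at percentiles 71.2 and 78.6 of distance-matched stretches. With the 2 kb window the signal was 2.85 at Hbb-b2 and 2.05 at Hbb-b1. Observed over expected was then 2.19 and 1.60, at percentiles 93.5 and 74.6, so the order of the genes depended on the window. The region's highest position was 110.973 Mb at 3.34 with the 5 kb window, and 110.962 Mb at 8.02 with the 2 kb window. No brain library was made for HS-62, and its enzymes differ, so its levels are not compared with those of the other viewpoints.

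Within a library Hbb-b1 was mostly seen more strongly than Hbb-b2. After division by the expected decay, Hbb-b1 exceeded Hbb-b2 by 0.63 on the log2 scale for HS-2 in liver and 0.35 in brain. For 3' HS-1 the excess was 1.13 in liver and 0.80 in brain, and for HS-62 in liver 0.12. The expected signal from HS-62 was 1.42 at both genes, so the division removed nothing there. It also changed little for 3' HS-1 in liver, where the excess without it was 1.10. The template pair's SD for a difference between targets as far apart was 0.65. It is the spread of the change in this contrast between the libraries of the pair. No SD was computed for the contrast within a single library, so whether these values exceed technical spread was not tested. Both values from 3' HS-1 were larger than 0.65 and the others smaller. The sizes depended on the setting. With positions within 5 kb of each gene, 3' HS-1 gave 0.62 in liver and 0.58 in brain, both below 0.65. HS-2 in liver gave -0.063 under that setting. With the decay of the genes' side alone, 3' HS-1 in brain fell to 0.39, whereas HS-2 in liver came to 0.92, above 0.65. At the nearest position 3' HS-1 in brain gave 0.22 and HS-2 in liver 0.82, and without division by the decay 3' HS-1 in brain turned to -0.12. The 2 kb window turned HS-62 in liver to -0.46.

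Whether the tissues differed in this contrast between the genes depended on the decay as well. With the decay of both sides liver exceeded brain by 0.27 from HS-2 and by 0.34 from 3' HS-1, within the SD. With the decay of the genes' side these were 1.12 and 0.71, both beyond it, and without the decay 0.24 and 1.22. The 2 kb window gave -0.78 from HS-2 and 0.78 from 3' HS-1, so from HS-2 the direction was not settled either.

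By the gene order the embryonic genes lie between the adult genes and the locus control region, but they were not placed on the mm9 positions. The stretch from 110983000 to 111001000, between the region and HS-2, is therefore described by its place alone. Averaged over whole stretches, the liver minus brain difference from HS-2 was 2.30 for the Hbb-b2 part of the region (up to 110968000) and 1.71 for the Hbb-b1 part (from 110969000), against -0.75 for the 12 positions of the stretch between that lay beyond 10 kb of HS-2. The last is higher than the median of all positions, -1.81. The stretch between lies nearer to HS-2, yet its mean of 1.93 in liver was below the 8.17 of the Hbb-b1 part, while in brain it was 3.31 against 2.42.

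From the Hbb-b1 promoter the Hbb-b2 part of the region differed by 0.24, the stretch between by -0.77 and the 10 kb around HS-2 by 1.99. In liver the means were 5.19, 2.10 and 12.3, and in brain 4.40, 3.64 and 3.03. HS-2, the most distant of the 3, was thus the highest in liver and the lowest in brain. From 3' HS-1 the differences ran from -0.66 for the Hbb-b2 part to 0.40 around HS-2, with -0.22 for the stretch between. The template pair's SD is for targets of 5 positions, and none was computed for stretches of this width.

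**Figure D4:**
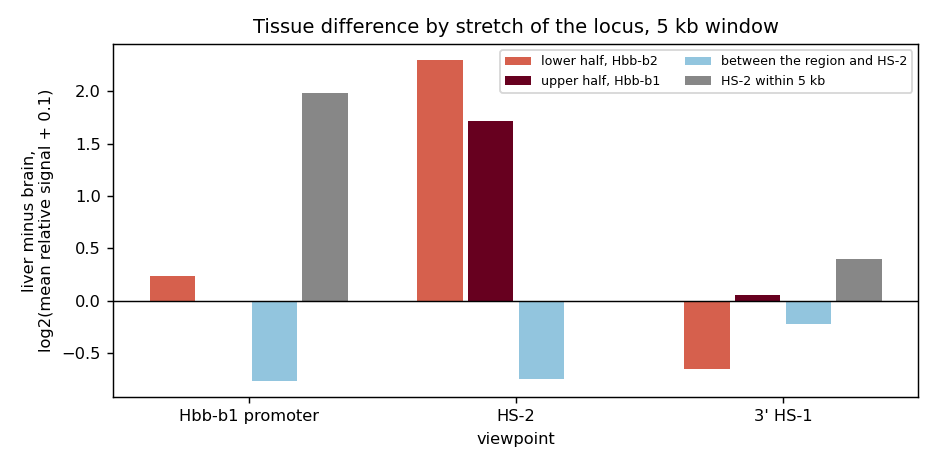
Liver minus brain difference of log2(mean relative signal + 0.1) (y, bars from 0) for 4 stretches of the locus from 3 viewpoints (x), 1 library per tissue, 5 kb window; stretches at or within 10 kb of a viewpoint have no bar. From HS-2 the parts holding Hbb-b2 and Hbb-b1 stand at 2.30 and 1.71 and the stretch between the region and HS-2 at -0.75.

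Gaps in the profiles bear on both genes. In the 5 kb window 110.967 and 110.968 Mb, between the genes, were 0 in all 7 libraries, and in the 2 kb window the 5 positions from 110.966 to 110.970 Mb were. In its window, each of these positions was 0 from every viewpoint and with both enzyme pairs. The reason was not tested, and a 0 there is not read as a lack of contact.

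The brain libraries had further zeros in common. In the 2 kb window, 16 of 29 positions of the region were 0 in all 3 brain libraries, 7 of these also in the 3 DpnII liver libraries and 9 in none of them. No position of the region was 0 in the liver libraries and filled in brain. Over the 370 positions outside the region, 28 (7.57%) were 0 in the 3 brain libraries and in none of the 3 liver libraries, against 31.0% within it. Across the whole profile each of the 156 positions at 0 in 1 brain library was 0 in all 3, whatever the viewpoint. At Hbb-b2, 4 of 5 positions were 0 in brain and 2 of 5 in liver, and at Hbb-b1 3 of 5 in brain and 0 of 5 in the DpnII liver libraries. The liver libraries of these viewpoints carry longer numbers in their titles, and nothing in the sources read here says whether they pool runs.

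Differences at 2 kb therefore move with the zeros. From HS-2 they were 3.44 at Hbb-b1 and 2.85 at Hbb-b2, and over the positions filled in both libraries 2.06 and 1.99. From the Hbb-b1 promoter Hbb-b2 went from 1.05 to 0.077, and from 3' HS-1 Hbb-b1 went from 1.43 to 0.48 and Hbb-b2 from -0.46 to -1.97. Every value of Hbb-b2 over filled positions rests on 110.963 Mb alone, and those of Hbb-b1 on 110.974 and 110.977 Mb. The template pair's SD at 2 kb, 1.03, is for means over a whole target and is not a measure for single positions.

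Counts over the region moved with the zeros too. From HS-2 the 2 kb window had 15 of 29 positions past 2-fold higher in liver and 3 lower, against 10.3% and 45.0% of all positions. Over the 13 filled in both libraries it had 6 higher and 3 lower, against 5.52% and 68.1%, and in the 5 kb window 17 of 26 were higher and 1 lower, against 9.49% and 62.8%. The share of higher positions from HS-2 was thus above its background in all of these counts.

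From the Hbb-b1 promoter the 2 kb window had 5 of 12 positions higher and 2 lower, against 10.3% and 42.9%. Over filled positions 1 of 5 was higher and 2 lower, against 8.7% and 64.7%, and in the 5 kb window 1 of 12 and 7 of 12, against 8.3% and 66.4%. Of the 5 higher positions at 2 kb, 4 were at 0 in brain. From 3' HS-1 the 2 kb window had 9 of 29 higher and 8 lower, against 29.3% and 13.7%. Over filled positions none of 13 was higher and 8 were lower, against 19.7% and 22.8%, and in the 5 kb window 1 of 26 and 4 of 26, against 23.4% and 13.1%.

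The level of the genes in the 5 kb window has the same limit. In the 5 kb window no position within 2 kb of either gene was 0 in any library, yet its values come from the same fragments. The part of the 2 kb zeros in those differences was not tested.

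**Figure D5:**
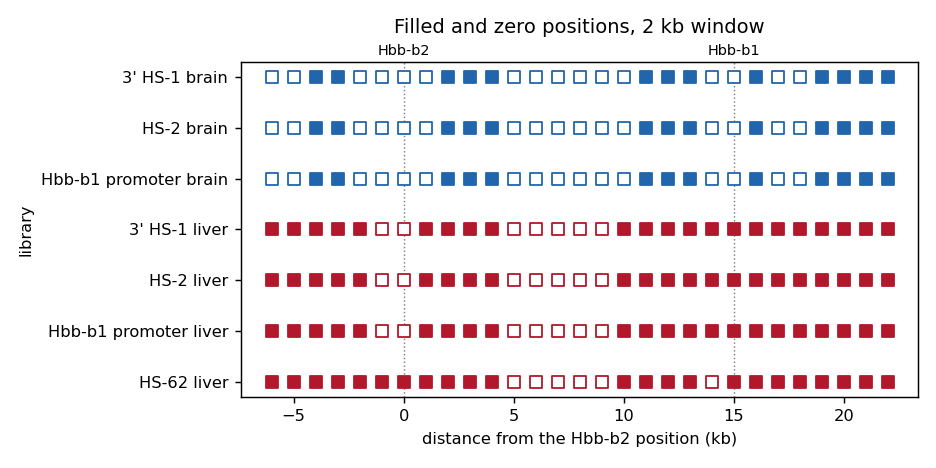
Positions of the region in the 2 kb window, by distance from the Hbb-b2 position in kb (x) and library (y); filled squares hold a signal above 0 and open squares are 0, in liver (red) and brain (blue). The 3 brain libraries share 1 pattern of 16 open squares, the 3 DpnII liver libraries another of 7, and 5 squares between the genes are open in all 7 libraries.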

How the data were processed

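Per the labels, 4C-seq libraries were made from pooled C57BL/6 fetal liver or brain. The deposited files give a signal per 1 kb step, relative to the viewpoint and smoothed by the authors over running windows, in mm9 per the submitters' processing notes. They have no header. Window sizes were read from the unfilled ends of each column. No aligner, filter or read number is named in the sources used here, and depth and its precision are unknown.

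The 2 kb and 5 kb windows were used, with 5 kb as the main one. The viewpoint was placed at the highest signal (median over its libraries). Expected signal came from a monotone decay fitted to both sides of the viewpoint (scikit-learn 1.9.0), and observed over expected (O/E) added 0.1 to both. The fit left out positions within 10 kb of the viewpoint but kept those of the region. A position was called past 2-fold. Calculations were tested on simulated profiles.

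Members, comparisons and alternatives were chosen with earlier results of these data known. Named were both genes, the highest and lowest position per library, the stretch between the region and HS-2 and the 3 most similar bins of 10 kb. Other libraries were not used here, apart from the template pair.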

Additional observations from a re-analysis of the deposited data

How the results depend on the processing

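No paired analysis was possible because each group holds 1 library. For the same reason no replicate could be left out. From HS-2 both genes stayed higher in liver under all 12 settings run for each. The library median could not be used there, as it was near 0 in liver. Zero-free positions and whole parts of the region were chosen after seeing the data.

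Tissue differences moved by more than 0.84, the template pair's SD for relative signal at 5 kb, in 11 cases, for which the cause was not tested. That SD was 1.03 for the 2 kb window and 0.61 for O/E, so calls at 2 kb depend on which SD is used. With the 2 kb window they were 1.05 (Hbb-b2 from the Hbb-b1 promoter), 3.44 (Hbb-b1 from HS-2) and 1.43 (Hbb-b1 from 3' HS-1). With O/E they were 1.31 and 1.58 (Hbb-b2 and Hbb-b1 from HS-2) and 0.23 (Hbb-b2 from 3' HS-1), and with the decay of the genes' side 0.23 and 1.35 from HS-2. Hbb-b2 from the Hbb-b1 promoter was -2.61 at the nearest position and 4.15 with the library median. From 3' HS-1 it was -1.97 at 2 kb over filled positions.

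For Hbb-b1 minus Hbb-b2 the 2 kb window gave 1.39 (HS-2 brain), 2.36 and 1.58 (3' HS-1 liver and brain). Relative signal without decay gave 1.51 and 1.26 (HS-2 liver and brain) and reversed 3' HS-1 brain to -0.12. Positions within 5 kb gave -0.063 (HS-2 liver).

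Positions past 2-fold numbered 8 from the Hbb-b1 promoter, 19 from HS-2 and 6 from 3' HS-1. Counting window ranges that part gave 0, 4 and 1, and the 2 kb window over filled positions gave 3 of 5, 9 of 13 and 8 of 13. From 3' HS-1, the 2 kb window gave 17, the median and the mean beyond 20 kb 13 each, and a pseudocount of 0.5 gave 2, 1 in each direction, against 12.0% of all positions higher and 4.52% lower.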

Other observations

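Hbb-b2 was compared with 31 bins of 10 kb by its liver minus brain differences from 3 viewpoints. For Hbb-b2 these were 2.28 from HS-2, -0.77 from 3' HS-1 and 0.0039 from the promoter of Hbb-b1. All bins lay outside the region and over 10 kb from these viewpoints, and none lay between 110.929 and 111.020 Mb. Closer neighbours of Hbb-b2 were thus not compared. None of the bins compared resembled Hbb-b2 closely. Bins are given with the promoter first, HS-2 next and 3' HS-1 last. The 3 nearest were 111.020 to 111.029 Mb, with 1.70, 0.52 and 2.07, then 110.860 to 110.869 Mb, with -1.86, -0.97 and -0.31, and 111.050 to 111.059 Mb, with -1.16, -0.80 and 1.08. Their distances from Hbb-b2 over the 3 differences were 3.75, 3.77 and 3.78 log2 units. From HS-2, 2 of these bins were lower in liver.

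The outline of the region was alike for some pairs of libraries and not for others. Over positions filled in both libraries, Spearman's rho was 0.65 between HS-2 and 3' HS-1 in liver (27 positions) and -0.47 between the same viewpoints in brain (26 positions). It was 0.33 between liver and brain from HS-2 and 0.24 from 3' HS-1 (26 positions each). Liver profiles of HS-62 gave 0.46 with 3' HS-1 and 0.22 with HS-2 (27 positions each). Positions within a profile share fragments, and libraries of 1 tissue share their zero positions, so these values are descriptions only.

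In the HS-2 liver library 189 of 375 positions were under 1e-09, of which 114 were exactly 0 and the rest only just above it. None of these small values above 0 fell in the region, where the lowest filled value was 1.05.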
